A study of Xenopus tropicalis with 18 samples.

Results

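Among the genes expressed in the head with pharynx of Xenopus tropicalis embryos and nearly silent in control foregut and hindgut, 14 stayed below 35% of their head level in foregut tissue treated with BMS493. They were chosen on CPM, the reads counted on a gene scaled to a common library total, averaged over the 3 libraries of a group. A gene had to reach 5 CPM in head with pharynx, to be at least 8 times higher there than in control foregut and at least 8 times higher than in control hindgut, and to have a ratio of BMS493 foregut to head with pharynx under 0.35. The first 3 limits were met by 259 of 28863 genes, and the last by 14 of those 259 (5.41%). The other 245 had a ratio of 0.35 or more and serve here as the genes most like them. The members are numbered 1 to 14 in falling order of their CPM in head with pharynx.

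The libraries came from explants of mesoderm and endoderm of wild-type embryos at Nieuwkoop-Faber (NF) stage 33, each a pool of 8 explants, with 3 replicates in each of 6 groups. Foregut was taken from embryos kept in 40 µM cyclopamine, from embryos kept in 100 nM BMS493, both from NF stage 15 to NF stage 33, and from embryos injected with 1 ng of an Rfx6 morpholino (500 pg into each cell at the 2-cell stage) and kept in 0.1% DMSO. Head with pharynx and hindgut were taken from embryos kept in 0.1% DMSO. Control foregut was taken from embryos that had 0.1% DMSO and 1 ng of a morpholino with a 5-base mismatch. The labels do not state whether the drug-treated embryos also received a morpholino or the DMSO dose of the controls. Cyclopamine and Rfx6 morpholino foregut thus differ in drug and morpholino, and possibly in injection and DMSO, which cannot be told apart. All 6 groups were of the NXR_1018 strain. The replicates are separate pools, and where the labels do not say that they came from separate clutches, p-values measure the spread between these pools.

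Retinoic acid is a vitamin A derivative that acts through nuclear receptors (RARs) and helps set position along the head-to-tail axis of the embryo, including the boundary between the pharynx and the foregut organs behind it. BMS493 is an inverse agonist of these receptors, which holds them in a repressive state. Cyclopamine blocks Smoothened, the membrane protein that passes on Hedgehog signals within the cells that receive them. In the gut, Hedgehog signals go from endoderm to the surrounding mesoderm. Rfx6 is a transcription factor needed for endocrine cells of the pancreas and gut in mouse and human. The intact head with its pharynx holds many tissues, among them the pharyngeal pouches and arches, brain, sense organs and cement gland. The explants here are labelled as mesoderm and endoderm, and which of these tissues they held was not tested.

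The files name genes only by identifiers of the XBXT10g kind, and 0 of the 28863 identifiers matched the gene table used here. No symbol, function, position or sequence is therefore given for any member, and the tissue labels and the Rfx6 gene were not checked against marker genes. Which tissue of the head a member's RNA came from was not tested. In whole explants, fewer cells of a type and less RNA per cell cannot be told apart.

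Total counts per library lay between 26006163 and 96814679, and replicate 3 was the shallowest library in each of the 6 groups. Replicates 1 and 2 of each treated group resembled each other more than the other pairs did. Over genes with at least 20 counts in a pair, the median chi-square between them was 2.43 times what sampling alone gives in cyclopamine, 2.59 times in BMS493 and 2.68 times in Rfx6 morpholino foregut. The other pairs within groups lay between 4.33 and 12.4 times. No pair agreed within sampling noise, and all were kept as separate samples. This measure cannot show whether replicates 1 and 2 of a treated group had a common source. BMS493 replicate 3 and Rfx6 morpholino replicate 3 stood apart from their own groups over the genes described here, and the values without them are given where they move a result.

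The 14 members covered a wide range of levels in head with pharynx. Their mean there ran from 5.58 to 1783 CPM with a median of 9.81 CPM, and 8 of 14 (57.1%) were under 10 CPM. The other 245 genes ran from 5.17 to 578 CPM with a median of 20.3 CPM, and 52 of them (21.2%) were under 10 CPM. Member 1, XBXT10g018020, dominated the sum, with 1783 ± 167 CPM in head with pharynx (SD, n = 3). On TPM, a scale that also corrects for gene length, the order changed. XBXT10g020756 (member 2) stood first with a level of 326 ± 48.9 TPM in head with pharynx (SD, n = 3). XBXT10g018020 followed with 203 ± 23.5 TPM, and its effective length was 5.8 times that of the median gene. XBXT10g024581 (member 3) averaged 46.9 TPM and XBXT10g028570 (member 7) averaged 40.3 TPM in head with pharynx. The remaining 10 members lay between 2.35 and 13.8 TPM there. Effective length relative to the median gene had a median of 0.687 over the members and of 0.827 over the other 245 genes, and the members ran from 0.164 to 5.8.

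The name under which these genes were grouped, low under BMS493, held only against head with pharynx. Every member was higher in every BMS493 library than in every control foregut library. That was 14 of 14 members and 245 of 245 of the other genes, against a background of 38.5% of the 19011 genes tested. edgeR's quasi-likelihood test on the counts called 13 of 14 members higher, against a background of 24.1%. The levels in both groups entered the choice of members, so nothing is read from these counts. Against head with pharynx, the ratio of BMS493 foregut ran from 19.1% to 34.9% with a median of 32.1% over the members, and from 35.1% to 94.5% with a median of 43.8% over the other 245 genes. The members nearest the limit had 33.9%, 34.3% and 34.9%, and the first genes past it had 35.1%, 35.2% and 35.3%. The ratios passed the limit without a gap, so the members are the lower edge of a continuous range.

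**Figure D1:**
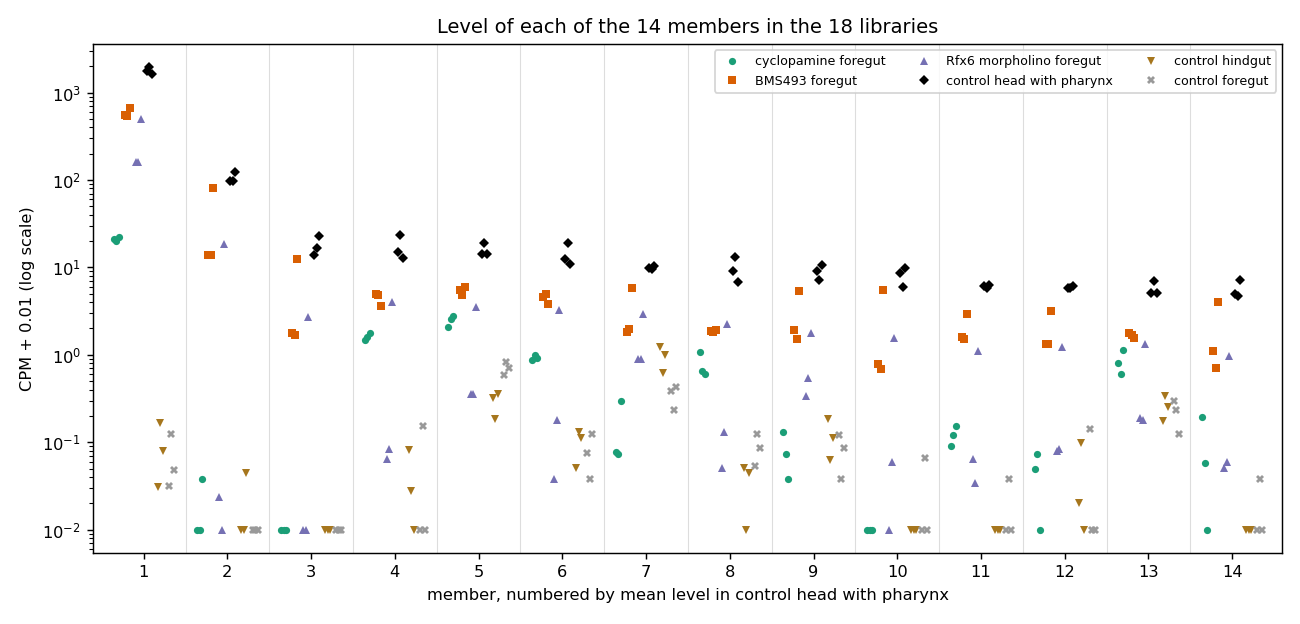
CPM plus 0.01 on a log axis for each of the 14 members, numbered by their level in head with pharynx, with 1 point per library and the 6 groups side by side. In BMS493 foregut each member lies above control foregut and below head with pharynx, while the cyclopamine libraries spread from 0 to 15.5% of the head level on average.

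The 4 members named by identifier are described first, and they do not cover every pattern found among the members. XBXT10g018020 had 559, 538 and 671 CPM in BMS493 foregut, 1775, 1954 and 1619.6 CPM in head with pharynx, and 0.0219, 0.113 and 0.0385 CPM in control foregut. Its BMS493 libraries stood far above control foregut, by 10189-fold on the means, and apart from head with pharynx with no overlap. The control foregut value rests on 6 counts in all 3 libraries together.

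XBXT10g020756 had 13.7, 13.9 and 80.8 CPM in BMS493 foregut, against 98.0, 97.7 and 124 CPM in head with pharynx. No count fell on it in any control foregut library, so BMS493 foregut was at least 1289-fold higher, taking 3 counts over the control foregut group, or 0.0281 CPM, as the most that a count of 0 allows. On BMS493 replicates 1 and 2 alone the bound was at least 493-fold. Replicates 1 and 2 of BMS493 foregut were close together and replicate 3 was far above them, at 75.8% of the head with pharynx mean.

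XBXT10g024581 had 1.79, 1.67 and 12.6 CPM in BMS493 foregut, against 13.8, 16.4 and 22.6 CPM in head with pharynx. It too had no count in control foregut, which makes BMS493 foregut at least 191-fold higher on the same floor, or at least 61.7-fold on BMS493 replicates 1 and 2 alone. It had no count in hindgut. BMS493 replicate 3 was again the high one.

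XBXT10g028570 had 1.80, 1.94 and 5.73 CPM in BMS493 foregut, 9.83, 9.49 and 10.5 CPM in head with pharynx, 1.22, 0.607 and 0.998 CPM in hindgut, and 0.373, 0.226 and 0.423 CPM in control foregut. It was the member with the highest hindgut share, 9.48% of its head with pharynx level, and its hindgut libraries all lay above its control foregut libraries. For the 14 members the median hindgut share was 0.217%.

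Most of the head with pharynx genes were low in BMS493 replicates 1 and 2, and including replicate 3 cut those that met the rule to 14. Among the 259 head with pharynx genes, 155 were under 35% of their head level in BMS493 replicate 1, 156 in replicate 2 and 5 in replicate 3. The median over the 259 genes was 29.4% in replicate 1, 29.4% in replicate 2 and 72.5% in replicate 3. BMS493 replicate 3 held 29667904 counts, against 81614727 and 69932764 in replicates 1 and 2, and the part of this depth in the result was not tested. Of the 14 members, 13 were under 35% in replicate 1, 14 in replicate 2 and 4 in replicate 3. Of the other 245 genes, 142 were under 35% in replicate 1, 142 in replicate 2 and 1 in replicate 3. The members' median was 21.9%, 20.8% and 50.3% in BMS493 replicates 1, 2 and 3, and that of the other 245 genes was 29.9%, 30.3% and 73.5%. Without BMS493 replicate 3, 155 genes met the rule. Without replicate 1, 7 genes met it, 6 of them members, and without replicate 2, 6 met it, 5 of them members. Without head with pharynx replicate 2, 26 genes met it, 12 of them members.

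By the rule, only a member can be under 35% in each of the 3 BMS493 libraries, since the mean is then under 35% too. The members under 35% in each were 4, 6, 8 and 13. On totals scaled by the trimmed mean of M-values (TMM) these were members 4, 8 and 13, and on TPM members 1, 4, 6 and 8. Member 8 had the lowest ratio of all and the steadiest values, with 1.85, 1.82 and 1.89 CPM in BMS493 foregut, which were 19.1%, 18.8% and 19.5% of the head with pharynx mean.

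**Figure D2:**
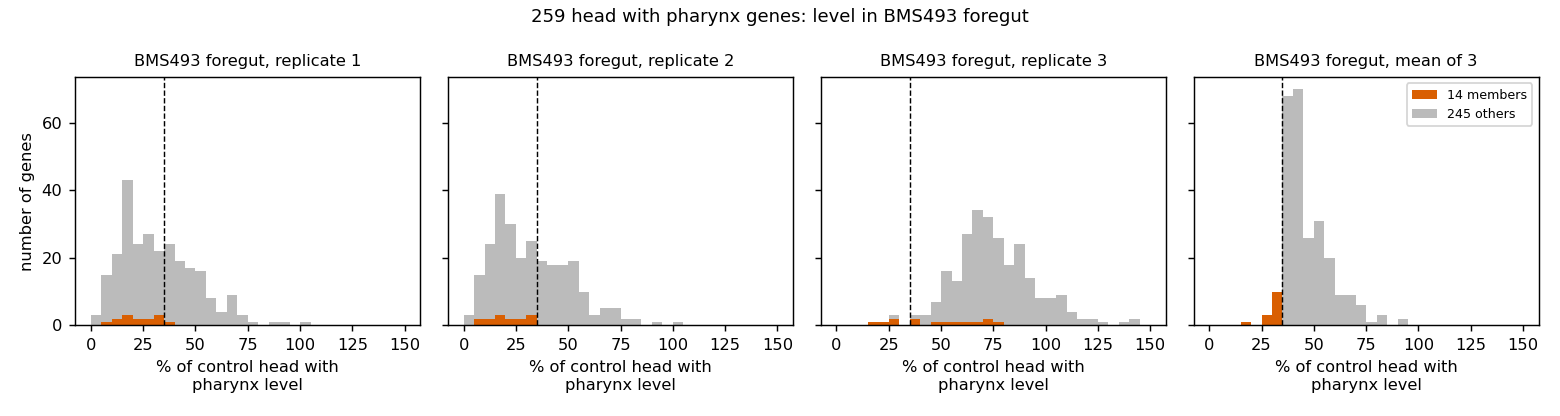
Histograms of the level in BMS493 foregut as a percentage of the head with pharynx mean, in bins of 5 percentage points, for the 14 members and the other 245 genes, with 1 panel for each BMS493 library and 1 for their mean. The dashed line marks 35%, which most of the 259 genes lie below in replicates 1 and 2 and 5 of them in replicate 3.

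Cyclopamine and Rfx6 morpholino foregut did not enter the choice of members, so the contrast between them is the one that can be tested. In edgeR's quasi-likelihood test with Benjamini-Hochberg adjustment over 19011 genes, 3 of 14 members were lower in cyclopamine foregut than in Rfx6 morpholino foregut and 0 were higher. Over all genes tested, 10.9% were lower and 11.5% were higher. At an unadjusted p under 0.05 the members were 5 lower and 0 higher, and the share over all genes was not counted. DESeq2 called 6 lower and 0 higher among 13 with an adjusted p. Over all 18182 genes with an adjusted p, it called 2426 lower and 2473 higher. The further DESeq2 calls were members 3, 10 and 12, most of whose Rfx6 morpholino counts lay in replicate 3. By edgeR, the other 245 genes had 41 lower and 4 higher. The filter on low counts looks at every library in a fit, and the rule sets each member at 5 CPM or more in head with pharynx. All 14 members thus passed it in the fit of 18 libraries. They also passed in one of the 12 foregut libraries, which include BMS493 foregut. With only the 6 libraries compared, 8 passed and members 1, 7 and 9 were called lower. Over all 18228 genes tested in that fit, 2696 were lower and 2482 were higher. In the fit of 18 libraries the median log2 fold change was -2.42 over the members, -1.44 over the other 245 genes and -0.01 over all genes tested. The median of -2.42 includes members that passed the filter only through libraries outside this contrast. With only the 6 libraries compared, it was -0.04 over the 8 members that passed and -0.95 over the other genes that passed. When Rfx6 morpholino replicate 3 was left out of the fit of all 6 groups, the members' median changed sign. The median was then 0.51 over the members, 0 over the other 245 genes and 0.00 over all genes tested. The value of 0.51 lies between member 3, at 0 with no count in the libraries compared, and member 14, at 1.03 ± 1.41 (SE). It too includes members that passed the filter only through other libraries, so no direction is read from it.

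The 3 members called were 1, 7 and 9. XBXT10g018020 had 21.2, 20.2 and 22.3 CPM in cyclopamine foregut, against 161, 162 and 500.0 CPM in Rfx6 morpholino foregut. The cyclopamine libraries were tightly grouped, and the lowest Rfx6 morpholino library was well above them. Its log2 fold change was -3.69 ± 0.37 (SE), with an edgeR adjusted p of 2.18e-05, and -2.95 ± 0.13 (SE) without Rfx6 morpholino replicate 3.

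XBXT10g028570 had 0.0666, 0.0633 and 0.283 CPM in cyclopamine foregut, against 0.882, 0.880 and 2.92 CPM in Rfx6 morpholino foregut. Its groups did not overlap, and its log2 fold change was -3.69 ± 0.70 (SE), with an edgeR adjusted p of 0.0017. Its cyclopamine values rest on 5, 4 and 10 counts, and those of member 9 on 9, 4 and 1 counts. Member 9 had 0.120, 0.0633 and 0.0283 CPM in cyclopamine foregut, against 0.331, 0.538 and 1.75 CPM in Rfx6 morpholino foregut, a log2 fold change of -3.32 ± 0.78 (SE) with an edgeR adjusted p of 0.00697. These 3 members were called lower in 15 of 15 settings of the test, where the highest adjusted p was 0.0117 for member 1, 0.0153 for member 7 and 0.035 for member 9. Without Rfx6 morpholino replicate 3 the log2 fold change was -2.95 for member 7 and -2.39 for member 9.

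Without overlap between the 3 libraries of each group, 4 members (1, 7, 9 and 12) were lower in cyclopamine foregut and 0 were higher, against 21.8% and 22.1% of all genes tested. Of the other 245 genes, 76 were lower and 5 were higher in that sense. The exact two-sided permutation p was 0.1 for each of these 4 members, the smallest that 3 libraries against 3 can give. With Rfx6 morpholino replicates 1 and 2 alone, the same 4 members were lower, and members 4, 5, 6, 8, 11 and 13 were higher in every cyclopamine library. For members 11 and 12 this rests on a few counts. Member 12 had 3, 4 and 0 counts in cyclopamine foregut, against 5, 3 and 40 in Rfx6 morpholino foregut. Member 11 had 6, 7 and 5 counts, against 4, 1 and 36. Over all genes tested, 27.8% were lower and 34.0% were higher in that sense. Among the other 245 genes, 76 were lower and 80 were higher.

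The result for most members turned on Rfx6 morpholino replicate 3. XBXT10g020756 had 0, 0 and 0.0283 CPM in cyclopamine foregut, against 0.0138, 0 and 18.6 CPM in Rfx6 morpholino foregut, where 616 of its 617 counts lay in replicate 3. XBXT10g024581 had no count in any cyclopamine library, against 0, 0 and 2.68 CPM in Rfx6 morpholino foregut. Neither was called, with edgeR adjusted p of 0.0709 for XBXT10g020756 and 0.253 for XBXT10g024581; over the alternatives these ran from 0.0385 to 0.976 and from 2.81e-10 to 1.

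Rfx6 morpholino replicate 3 held all 14 members at 15.2% to 29.4% of their head with pharynx level, with a median of 21.2%, while the medians of replicates 1 and 2 were 0.821% and 1.22%. The other 245 genes had medians of 3.02%, 3.02% and 22.7% in the same 3 libraries. That library held 33172422 counts, against 72571761 and 40903171 in replicates 1 and 2, and the part of this depth was not tested. With it left out, 8 members were called between cyclopamine and Rfx6 morpholino foregut. Over all 19307 genes tested in that fit, 2028 were lower and 2391 were higher in cyclopamine foregut. Members 1, 7 and 9 were lower in cyclopamine foregut and members 4, 5, 6, 8 and 13 were higher in cyclopamine foregut. These last 5 members had no call with the library included. Without Rfx6 morpholino replicate 1, 5 members were lower in cyclopamine foregut and 0 were higher by edgeR. Over all 19229 genes tested in that fit, 1420 were lower and 1424 were higher.

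Sorted by these values after they were seen, the members fell into 3 patterns, given as description with no test. Members 4, 5, 6, 8 and 13 were at 5% or more of head with pharynx in cyclopamine foregut. They stood at 6.41% to 15.5% on the mean, from 21 to 161 counts per library. Their 0.586 to 2.75 CPM in cyclopamine libraries compared with 0 to 0.82 CPM in control foregut libraries. Their mean of Rfx6 morpholino replicates 1 and 2 was 0.374% to 3.09% of head with pharynx, and replicate 3 stood at 22.1% to 23.5%.

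Member 4 was the highest of these 5 in head with pharynx. It had 1.48, 1.58 and 1.79 CPM in cyclopamine foregut, 4.94, 4.82 and 3.64 CPM in BMS493 foregut, 0.0551, 0.0733 and 4.04 CPM in Rfx6 morpholino foregut, 14.9, 23.7 and 12.9 CPM in head with pharynx, and 0, 0.141 and 0 CPM in control foregut. Member 5 was the highest of them in cyclopamine foregut, with 2.05, 2.55 and 2.75 CPM, against 0.570, 0.820 and 0.692 CPM in control foregut. Every cyclopamine library of both members was above every control foregut library.

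In BMS493 foregut the ratio of replicate 3 to the mean of replicates 1 and 2 was 0.746 to 1.15 for these 5 members, and 1.22 for member 1, the next lowest. On TMM-scaled totals it was 0.732 to 1.13 for the 5 and 1.20 for member 1. On TPM it was 0.55 to 1.15 for the 5, and member 1, at 1.13, lay within that range. In head with pharynx, replicate 2 was the highest library for 5 of these 5 members. The head with pharynx mean is the divisor in the rule, so a high value in any of its libraries favours membership.

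Members 1, 7 and 9 made the second pattern. They stood at 0.786% to 1.39% of head with pharynx in cyclopamine foregut, at a mean of 4.84% to 9.05% in Rfx6 morpholino replicates 1 and 2, and at 19.5% to 29.4% in replicate 3. The RNA of these 3 was thus measured in every Rfx6 morpholino library, with 22 counts or more in each. Their BMS493 replicate 3 was 1.22 to 3.16 times the mean of replicates 1 and 2. Member 1 had 787 to 1595 counts per cyclopamine library, above the range of the first pattern, though under 5% of its head with pharynx level.

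Members 2, 3, 10, 11, 12 and 14 made the third pattern and were at or near 0 outside head with pharynx, BMS493 foregut and Rfx6 morpholino replicate 3. In cyclopamine libraries they had 0 to 14 counts, at most 1.81% of head with pharynx on the mean. Rfx6 morpholino replicates 1 and 2 averaged 0% to 1.20% of head with pharynx, and replicate 3 had 15.2% to 20.3%. BMS493 replicate 3 was 1.90 to 7.61 times the mean of replicates 1 and 2. Member 10 gave the largest ratio, with 0.772, 0.672 and 5.49 CPM in BMS493 foregut. In head with pharynx, replicate 3 was the highest library for 6 of these 6 members.

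**Figure D3:**
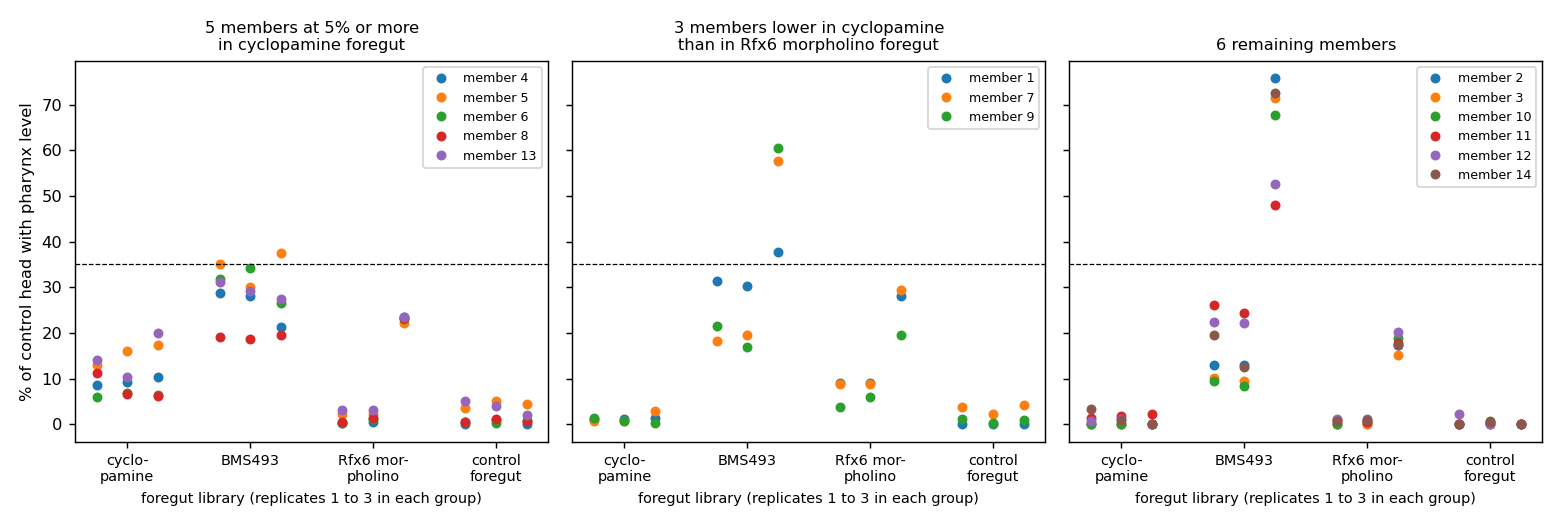
Level as a percentage of the head with pharynx mean in each library of cyclopamine, BMS493, Rfx6 morpholino and control foregut, with 1 panel for each of the 3 patterns (5, 3 and 6 members) and 1 point per member and library. The dashed line marks 35%, and BMS493 replicate 3 lies at 48.0% or more for the 6 members of the last panel.

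The other 245 genes were split by their cyclopamine level in the same way. Of these, 116 were at 5% or more of head with pharynx in cyclopamine foregut, and their BMS493 replicate 3 was at a median of 1.46 times the mean of replicates 1 and 2, with a range of 0.752 to 15.5. The 129 genes under 5% had a median of 4.38 and a range of 1.17 to 114. The 9 members under 5% had a median of 3.16. Head with pharynx replicate 2 was the highest library for 23 of the 116 genes (19.8%) and 4 of the 129 genes (3.1%), and replicate 3 was the highest for 45 of the 116 and 107 of the 129 (82.9%). Since a high head with pharynx library favours membership, a difference in these counts between members and other genes is partly set by the choice. The points share libraries and are not independent, so no p is given.

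BMS493 replicate 3 was below the mean of replicates 1 and 2 in 3 of 14 members (21.4%), members 4, 6 and 13, and in 9 of 245 other genes (3.67%). Since the mean used by the rule includes replicate 3, a low value there favours membership, and this difference is partly set by the choice.

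**Figure D4:**
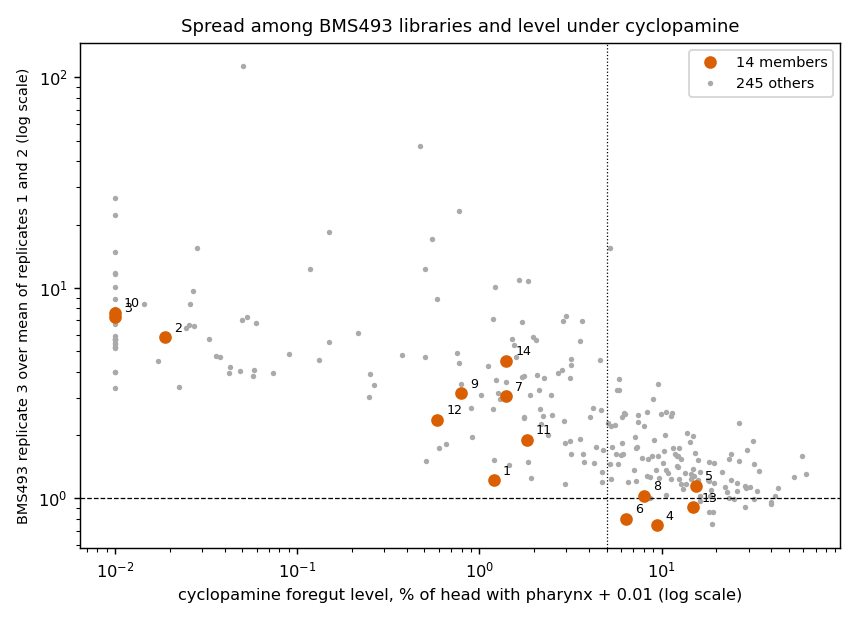
Cyclopamine foregut level as a percentage of head with pharynx plus 0.01 (log axis) against BMS493 replicate 3 divided by the mean of replicates 1 and 2 (log axis), with the 14 members numbered and the other 245 genes in grey. Lines mark 5% and a ratio of 1, and the 5 members right of the 5% line lie between 0.746 and 1.15.

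Against control foregut, whose level the rule caps, 3 members were higher in cyclopamine foregut (members 1, 4 and 13) and 0 were lower by edgeR, against 11.0% higher and 10.4% lower over all genes tested. At an unadjusted p under 0.05 there were 6 higher and 0 lower, and the share over all genes was not counted. DESeq2 called 6 members higher and 0 lower, and over all 18182 genes with an adjusted p 2156 higher and 2621 lower. The other 245 genes had 66 higher (26.9%). Leaving out any 1 of the 6 cyclopamine and control foregut libraries left member 1 alone called. The genes higher over all tested in those fits ran from 1293 of 19243 to 2179 of 19295. Without overlap, 7 members (1, 4, 5, 6, 8, 11 and 13) were higher in every cyclopamine library, against 24.4% of all genes tested and 139 of the other 245 genes (56.7%). Member 11 had only 6, 7 and 5 counts there, against 0, 1 and 0 in control foregut.

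In Rfx6 morpholino foregut, 3 members (1, 7 and 9) were higher than in the same control foregut libraries and 0 were lower by edgeR, against 8.94% higher and 9.46% lower over all genes tested. At an unadjusted p under 0.05 there were 8 higher and 0 lower, and the share over all genes was not counted. DESeq2 called 9 members higher and 0 lower, and over all 19089 genes with an adjusted p 1826 higher and 2249 lower. The further DESeq2 calls were members 3, 4, 6, 8, 11 and 14, most of whose Rfx6 morpholino counts lay in replicate 3. Among the other 245 genes 92 were higher (37.6%) by edgeR. Without overlap, 4 members (1, 7, 9 and 14) were higher in every Rfx6 morpholino library, against 20.2% of all genes tested and 134 of the other 245 genes (54.7%). Member 14 had only 3, 2 and 32 counts there, against 0, 1 and 0 in control foregut. The edgeR count of 3 became 7 without Rfx6 morpholino replicate 1, 5 without replicate 2 and 1 without control foregut replicate 2, all higher. Over all genes tested in these fits, 1234 of 19229, 1193 of 19301 and 1351 of 19295 were higher. Without Rfx6 morpholino replicate 3 the edgeR count was again 3, with members 1 and 9 higher and member 5 lower than in control foregut. Over all genes tested in that fit, 1716 of 19307 were higher and 1934 were lower. Both contrasts share the control foregut libraries, so their calls are not independent.

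Cyclopamine foregut was below BMS493 foregut in every library for 14 of 14 members, against 34.7% of all genes tested and 243 of the other 245 genes. edgeR called 10 of 14 members lower, against 19.8% of all genes tested and 229 of the other 245. The BMS493 level is capped by the rule, and both counts are a description. Over the members, the mean level in cyclopamine foregut had a median of 1.39% of head with pharynx, against 32.1% in BMS493 foregut, 8.11% in Rfx6 morpholino foregut and 0.382% in control foregut. On replicates 1 and 2 alone the medians were 20.7% in BMS493 foregut and 0.827% in Rfx6 morpholino foregut, the second of these below cyclopamine foregut. For the other 245 genes the medians were 4.24% in cyclopamine, 43.8% in BMS493, 9.56% in Rfx6 morpholino and 1.26% in control foregut, and on replicates 1 and 2 alone 30.5% in BMS493 and 2.99% in Rfx6 morpholino foregut.

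Summed over the 14 members, the level was 28.0, 26.9 and 30.0 CPM in cyclopamine foregut, 602, 579 and 808 CPM in BMS493 foregut, 163, 164 and 545 CPM in Rfx6 morpholino foregut, 1987, 2189 and 1867 CPM in head with pharynx, and 1.60, 1.81 and 1.54 CPM in control foregut. XBXT10g018020 supplied 74.5% to 75.9% of the sum in cyclopamine libraries and 86.7% to 89.3% in head with pharynx. Without it the sum was 6.75, 6.70 and 7.65 CPM in cyclopamine foregut, 42.7, 41.2 and 137 CPM in BMS493 foregut, 2.04, 2.49 and 45.1 CPM in Rfx6 morpholino foregut, 212, 235 and 247.5 CPM in head with pharynx, and 1.58, 1.70 and 1.50 CPM in control foregut. In each sum replicate 3 of BMS493 and of Rfx6 morpholino foregut was the highest library of its group, and the Rfx6 morpholino libraries 1 and 2 were above control foregut in both sums.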

How the data were processed

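Poly(A) RNA-seq of 18 Xenopus tropicalis libraries was read from 2 tables that the authors deposited, one of estimated counts per gene and one of TPM. The submitters' processing notes name RSEM 1.3.0 and Bowtie2, and the build and gene models were not given there. The deposited counts were 100% whole numbers, and the row without a gene held 0 counts. Columns were matched to libraries by title, and checked by correlation of log2 values between the tables. On uncentred values 12 of 18 count columns correlated best with the TPM column of their own title; with each gene centred on its mean over libraries, a check added after that result, 18 of 18 did, over 11924 genes. Where the descriptions of BMS493 replicates 2 and 3 repeat replicate 1's name, the title was used. The members and lists were chosen with earlier results of these data known. CPM used the total counts. The test was edgeR 4.0.16 in R 4.3.3 (quasi-likelihood, robust, TMM) on all 18 libraries with group as the only term, genes kept at a minimum count of 10, Benjamini-Hochberg adjustment and a threshold of 0.05. It was tested on simulated data in which the groups had the same mean levels apart from the changes set, and no replicate stood apart. That does not cover members near 0 counts in a group or with an outlying replicate 3. The common biological coefficient of variation in the deposited data was 0.127. DESeq2 1.42.0 was an alternative. Named by identifier were the members with the largest changes called between cyclopamine and Rfx6 morpholino foregut, at most 2 in each direction, with places left empty in a direction filled by the members highest in head with pharynx; all others carry their number. Floors of 3 counts cover counting error only. Symbol lists fixed for head tissues, pathways and other cell types could not be applied. Genes that share reads with near-identical copies could not be identified and may have uncertain counts.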

Additional observations from a re-analysis of the deposited data

How the results depend on the processing

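The number of members was 14 under the rule and depended on its limits: 38 on the authors' deposited TPM (13 shared), 1 at a ratio limit of 0.25, 178 at 0.5, 28 at a minimum of 1 CPM and 6 at a minimum of 10 CPM. Leaving out 1 library gave 6 to 155 members. The contrast of cyclopamine and Rfx6 morpholino foregut is independent of the rule, and those against control foregut are not. The count of members called between cyclopamine and Rfx6 morpholino foregut (3) became 8 with BMS493 and Rfx6 morpholino groups of replicates 1 and 2 (5 higher, 3 lower) and 6 with DESeq2, and ran from 3 to 8 when 1 library was left out. The count between cyclopamine and control foregut (3) became 1 with no filter on low counts and 1 with the 12 foregut libraries. It was 6 of 7 tested with the 6 libraries compared, 1 with the treated replicates 1 and 2 summed, and 6 with DESeq2. With only replicate 3 of BMS493 and of Rfx6 morpholino foregut left out, it was 8 (7 higher, 1 lower). That fit kept all 6 cyclopamine and control foregut libraries. The count was 1 whenever 1 of those 6 was left out. The count between Rfx6 morpholino and control foregut (3) became 9 with DESeq2 and ran from 1 to 7 when 1 library was left out. It was 2 of 4 tested with only the 6 libraries compared. The causes were not tested. With replicate 3 of BMS493 and of Rfx6 morpholino foregut left out, 2580 of 19401 genes were higher and 2229 lower between cyclopamine and Rfx6 morpholino foregut. Between cyclopamine and control foregut 2428 were higher and 2326 lower. With only the 6 libraries compared, 1441 of 17767 genes were higher in cyclopamine than in control foregut. For Rfx6 morpholino against control foregut it was 877 of 17792. Higher in cyclopamine than in control foregut were 1960 of 23683 genes with no filter on low counts. With the 12 foregut libraries these were 1897 of 18542, and with the treated replicates 1 and 2 summed 1032 of 19154. The members' median log2 fold change between cyclopamine and Rfx6 morpholino foregut was -2.42 in the main fit. It was 0.52 with BMS493 and Rfx6 morpholino groups of replicates 1 and 2. It was -0.04 over the 8 members tested with only the 6 libraries compared. The first 2 values include members that passed the filter only through libraries outside this contrast. In that contrast members 4, 6, 8, 11 and 14 had log2 fold changes on both sides of 0 over the settings. No named member changed sign there in any alternative that gave it a value. Without Rfx6 morpholino replicate 3, however, the log2 fold change of XBXT10g020756 went from -9.44 to -0.47 and that of XBXT10g024581 from -8.28 to 0. Replicate numbers are shared between groups, but the correlation of same-numbered libraries' deviations lay between -0.0878 and 0.109, so the numbers were not taken as pairs. Against Rfx6 morpholino foregut, and also against control foregut, every cyclopamine library correlated best with its own number. With the number as a replicate block the counts were 3 for cyclopamine against Rfx6 morpholino, 1 for cyclopamine against control and 3 for Rfx6 morpholino against control foregut. Over all 19011 genes tested, 2460 were lower in the first of these contrasts, 2484 higher in the second and 2036 higher in the third. At the depths here a member at 0 counts in a group is below 3 counts, and replicate 3, the shallowest library of each group, carries the widest counting error.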

Other observations

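Member 13 differed between CPM from the deposited counts and the deposited TPM. BMS493 replicate 3 was 0.906 times the mean of replicates 1 and 2 on CPM and 0.55 times on TPM.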
